A study of Danio rerio with 8 samples.

Results

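The interferon regulatory factor (IRF) genes of the zebrafish were followed in ventricles of adult offspring. The 9 genes, irf1a, irf1b, irf2, irf3, irf5, irf7, irf8, irf9 and irf10, were taken by symbol with case ignored, out of 32520 genes in the table. No row carries the symbol irf2; RefSeq gives irf2 as an older name of irf2b, and that row was used. Of the 9 genes, 8 had enough reads to enter the test over 13604 genes, and irf1a did not.

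Ventricles came from adult zebrafish sired 7 days after cryoinjury, in which part of the father's ventricle is killed by cold (injured fathers; 4 libraries, numbered 1, 2, 4 and 7 in the labels), or sired by uninjured males (uninjured fathers; 4 libraries, numbered 1, 3, 4 and 5). All mothers were uninjured, and the offspring's own hearts were not injured. Each library pooled the ventricles of 4 siblings, with atrium and bulbus arteriosus removed and a cut made to let red blood cells out. The sources used here give neither the offspring's age beyond adult, nor sex, strain or the number of fathers, so a p-value here speaks of the variation from pool to pool.

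IRF proteins are transcription factors that bind GAAA-rich elements in promoters through a tryptophan-rich domain. irf3 and irf7 encode the factors that kinases switch on below sensors of foreign nucleic acid, and they turn on interferon genes; irf9 encodes the DNA-binding part of the complex that carries the signal of type I interferon to the nucleus. irf1 and irf2 encode an activator and a factor best known from mammals as its antagonist, irf5 acts below Toll-like receptors, and irf8 is required for macrophage formation in zebrafish. irf10 is absent from human and mouse and has been described as a brake on the interferon response in zebrafish.

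The 4 injured-father libraries held 8441014 to 16290169 counts each, and the 4 uninjured-father libraries 12450251 to 14736121. Heart muscle markers summed to 82171 to 100849 counts per 1000000 (CPM) with injured fathers and 94744 to 113389 CPM with uninjured fathers, and markers of the removed atrium and bulbus to 2059 to 2876 CPM and 2135 to 2835 CPM in the same order. Macrophage markers (16 rows, of which 1 was at 0 in every library) summed to 268 to 563 CPM with injured fathers and 221 to 339 CPM with uninjured fathers, and were highest in the injured-father library 7. The invariant-chain genes cd74a and cd74b made up 77.2% to 83.3% of that sum in every library. Without them it was 61.1, 50.1, 81.3 and 112 CPM in the injured-father libraries 1, 2, 4 and 7, and 46.4, 49.3, 42.7 and 61.6 CPM in the uninjured-father libraries 1, 3, 4 and 5. The macrophage list had 13 tested rows. Of these, 11 had a log2 fold of injured over uninjured fathers above 0 and 2 had one under 0. Of the 7 tested heart muscle rows 0 were above 0, and of the 7 tested red blood cell rows 7 were. Over all tested genes, 48.6% were above 0. Not all macrophage genes were high in the injured-father library 7. There csf1rb was at 0.409 CPM, its lowest value. It was at 0.531 to 0.718 CPM in the other injured-father libraries and 0.649 to 2.32 CPM in the uninjured-father libraries. In the injured-father library 7, 3 reads come to 0.175 CPM, so csf1rb rested on few reads there. The haemoglobin share of the reads averaged 0.215% ± 0.0971 in injured-father libraries, with 0.360% in library 4, and 0.113% ± 0.0387 in uninjured-father libraries (SD, n = 4 each). Neutrophil markers summed to 5.37 to 37.4 CPM with injured fathers and 6.56 to 23.9 CPM with uninjured fathers, and T and NK cell markers to 2.64 to 5.39 CPM and 1.4 to 4.88 CPM in the same order. B cell markers summed to 2.74 to 7.25 CPM with injured fathers and 3.39 to 9.84 CPM with uninjured fathers, and dendritic cell markers summed to 0.439 to 1.87 CPM and 1.01 to 1.39 CPM in the same order. Red blood cell markers summed to 615 to 1881 CPM with injured fathers and 429 to 768 CPM with uninjured fathers. Thrombocyte markers summed to 334 to 488 CPM and 463 to 585 CPM, and fibroblast and epicardial markers to 386 to 642 CPM and 636 to 757 CPM, injured fathers first.

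Per length of exon, irf9, irf2b and irf1b were the most abundant IRF genes of the ventricle, and irf5 and irf1a the least abundant of the 9. The levels in this paragraph are CPM per kilobase of exon, with mean ± SD (n = 4 per group). irf9 was at 17.3 ± 3.98 with injured fathers and 11.3 ± 2.27 with uninjured fathers, and irf2b at 9.42 ± 2.90 and 9.72 ± 4.19 in the same order. irf1b was at 10.6 ± 2.56 with injured fathers and 5.58 ± 2.29 with uninjured fathers. irf8 followed at 5.43 ± 1.03 and 5.03 ± 0.933 CPM per kilobase, with injured and uninjured fathers in that order. irf7 was at 7.05 ± 4.13 with injured fathers and 2.94 ± 0.273 with uninjured fathers, so it stood above irf8 in 2 of the 4 injured-father libraries and below it in all 4 uninjured-father libraries. irf3 was at 3.11 ± 0.637 with injured fathers and 1.71 ± 0.496 with uninjured fathers, irf10 at 1.69 ± 0.699 and 1.14 ± 0.172, and irf5 at 0.410 ± 0.0900 and 0.273 ± 0.0926, each with injured fathers first.

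Most neighbours in that order overlapped. Over the 8 libraries irf9 exceeded irf2b in 7, irf2b exceeded irf1b in 5, and irf1b exceeded irf8 in 6, with ranges that overlapped in each pair. irf2b was the more abundant of the pair irf1b and irf2b in all 4 uninjured-father libraries and in 1 of the 4 injured-father libraries. irf3 exceeded irf10 in all 8 libraries, and irf5 lay below every library's value of irf4a, the family gene next above it.

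**Figure D1:**
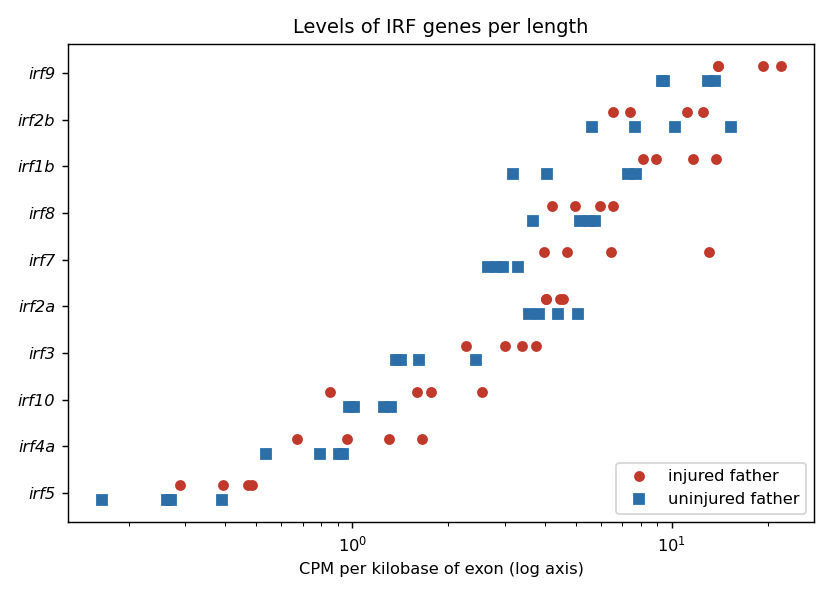
CPM per kilobase of exon (log axis) of the 10 IRF genes with a measurable level, 1 point per library, circles for injured fathers above squares for uninjured fathers. irf9 is at the top at 17.3 with injured fathers and 11.3 with uninjured fathers, and irf5 is at the bottom at 0.410 and 0.273.

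The sum over all IRF family rows of the table was 60.6 ± 11.5 CPM per kilobase in injured-father libraries and 42.8 ± 7.50 in uninjured-father libraries (SD, n = 4 each). irf9 took 28.7% ± 5.10 of that sum with injured fathers and 26.4% ± 0.962 with uninjured fathers. irf7 took 11% ± 4.33 with injured fathers, with 17.2% in the library where it was highest, and 7.07% ± 1.59 with uninjured fathers. irf2b took 15.7% ± 4.65 with injured fathers and 22% ± 5.86 with uninjured fathers. These shares are descriptions of the libraries and were not tested.

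The comparison of the fathers' groups asked whether IRF expression in the unperturbed heart differs with the father's injury. By edgeR's quasi-likelihood test with Benjamini-Hochberg adjustment over all genes, 0 of the 8 tested IRF genes passed an adjusted p of 0.05, as did 0% of the 13604 genes. At an unadjusted p under 0.05, 4 of the 8 were higher with injured fathers (irf7, irf1b, irf3 and irf9) and 0 were lower, beside 3.67% of all tested genes higher and 3.47% lower. The log2 fold was above 0 in 7 of the 8, against 48.6% of all genes, and above 0.5 in 6 of the 8, against 8.29% of all genes. The median log2 fold was 0.60 over the 8 IRF genes and -0.01 over all tested genes. These counts include irf5, which passed the low-count filter mostly through the injured-father libraries, so its direction is not independent of that filter. With a stricter filter (minimum count 30) irf5 was not tested. Then 6 of 7 IRF genes had a log2 fold above 0, with a median of 0.61. That filter moved the same limit to irf10, which passed it mostly through injured-father libraries. irf10 had 32, 14, 42 and 79 reads in the injured-father libraries 1, 2, 4 and 7. It had 25, 22, 33 and 29 in the uninjured-father libraries 1, 3, 4 and 5. In 3 genes (irf7, irf1b and irf9) every injured-father library lay above every uninjured-father library in TMM-scaled CPM, as in 2.60% of all tested genes. In each of these 3 genes the nearest libraries of the groups had overlapping 95% counting intervals. For irf1b these were 21.4 to 26.8 CPM (injured-father library 4) and 20.4 to 25.5 CPM (uninjured-father library 1). DESeq2 called 0 of the 8 at an adjusted p of 0.05, beside 0.473% of the genes to which it gave an adjusted p; its smallest among the IRF genes was 0.092, for irf7.

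**Figure D2:**
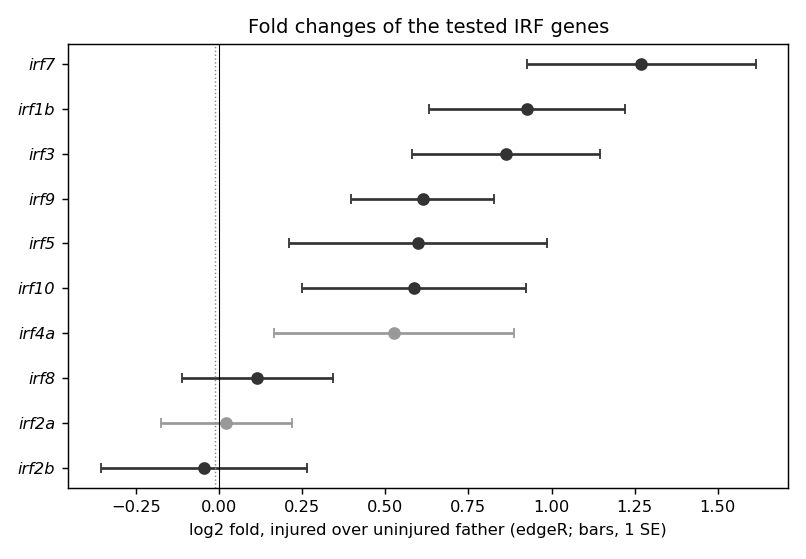
Log2 fold (injured over uninjured father, edgeR) of the 8 tested IRF genes in black and of irf4a and irf2a, 2 other family genes, in grey, with bars of 1 SE and a dotted line at the median of all tested genes. Values run from 1.27 for irf7 to -0.05 for irf2b.

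irf7, in mammals the inducible partner in the irf3 and irf7 pair, had the largest difference of the family in the main fit. It is listed as IRF7 (ENSDARG00000045661, GRCz11 chromosome 25, 25546789 to 25550955, minus strand, 9 merged exons). It was at 7.36, 8.68, 11.9 and 24.0 CPM in the injured-father libraries 1, 2, 4 and 7, against 4.89, 6.08, 5.48 and 5.23 CPM in the uninjured-father libraries 1, 3, 4 and 5. The groups did not overlap, and library 7 stood far above the rest of its group (412 reads, against 157 in library 4). The means were 13.0 ± 7.61 CPM with injured fathers and 5.42 ± 0.503 CPM with uninjured fathers (SD, n = 4 each). edgeR gave a log2 fold of 1.27 (SE 0.34), with an unadjusted p of 0.0031 and an adjusted p of 0.46. Without the injured-father library 7 the log2 fold was 0.78 (unadjusted p 0.0082), beside 0.77 for irf1b and 0.75 for irf3. That library also had the highest macrophage marker sum, carried mostly by cd74a and cd74b. With that sum in the model the log2 fold of irf7 was 0.65 (unadjusted p 0.034), below the 0.96 of irf1b and the 0.79 of irf3. Here and below, this covariate mostly follows cd74a and cd74b, so it does not measure macrophage number alone. A covariate without these 2 genes was not tested.

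irf3 encodes the partner that in mammals is made without induction (ENSDARG00000076251, chromosome 12, 4580372 to 4598237, minus strand). It was at 3.50, 4.61, 5.23 and 5.78 CPM in the injured-father libraries 1, 2, 4 and 7, against 2.19, 2.48, 3.75 and 2.11 CPM in the uninjured-father libraries 1, 3, 4 and 5. The groups overlapped through 1 pair, since the injured-father library 1 lay below the uninjured-father library 4. edgeR gave a log2 fold of 0.86 (SE 0.28), an adjusted p of 0.58 and, before adjustment, a p of 0.0099. With the macrophage marker level in the model the log2 fold was 0.79 (unadjusted p 0.039). The irf7 to irf3 ratio of reads, which no scaling between libraries can alter, ran from 1.88 to 4.16 with injured fathers and from 1.46 to 2.48 with uninjured fathers. The log2 ratio differed by 0.23 between the groups (exact two-sided permutation p = 0.54; adjusted p = 0.81 over 3 ratios), and by -0.021 without the injured-father library 7. A larger difference in irf7 than in irf3 was thus not detectable.

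irf1b, a copy of the gene for the activator IRF1, stood at 34.3, 26.3, 24.0 and 40.4 CPM in the injured-father libraries 1, 2, 4 and 7 (ENSDARG00000043249, chromosome 21, 45626136 to 45633317, plus strand). It stood at 22.8, 9.36, 21.5 and 12.0 CPM in the uninjured-father libraries 1, 3, 4 and 5. The lowest injured-father value lay just above the highest uninjured-father value, and the uninjured-father libraries 1 and 4 stood above 3 and 5. Those nearest values were 316 reads among 14478326 counts (injured-father library 4) and 313 among 13465112 (uninjured-father library 1). By library size alone their order turns, so the gap between the groups depends on the scaling. The means were 31.2 ± 7.54 and 16.4 ± 6.74 CPM with injured and uninjured fathers (SD, n = 4 each), and edgeR gave a log2 fold of 0.93 (SE 0.30). The unadjusted p was 0.0088 and the adjusted p 0.57, and with the macrophage marker level in the model the log2 fold was 0.96 (unadjusted p 0.022). Its paralogue irf1a (ENSDARG00000043492, chromosome 13, 311380 to 318827) had 0, 0, 1 and 4 reads in the injured-father libraries 1, 2, 4 and 7, and 0 reads in each uninjured-father library. A count of 0 allows up to 3 reads, or 0.216 to 0.240 CPM in the uninjured-father libraries, so irf1a was at or near the limit of detection and no fold is given.

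irf2b, a copy of the gene for IRF2, showed no detectable difference. It was at 34.2, 20.2, 17.8 and 30.5 CPM in the injured-father libraries 1, 2, 4 and 7, against 27.9, 21.0, 41.8 and 15.4 CPM in the uninjured-father libraries 1, 3, 4 and 5 (ENSDARG00000040465, chromosome 14, 4084120 to 4121052, minus strand). The groups overlapped across most of their range, and both the highest and the lowest of the 8 values were in uninjured-father libraries. edgeR gave a log2 fold of -0.05 (SE 0.31), whose sign turned with library sizes alone (0.049) and with upper-quartile factors (0.020). In reads per library, irf1b over irf2b was 1.003, 1.3, 1.34 and 1.32 in the injured-father libraries 1, 2, 4 and 7, and 0.819, 0.447, 0.514 and 0.782 in the uninjured-father libraries 1, 3, 4 and 5. Every injured-father library thus had more irf1b than irf2b reads, and every uninjured-father library had fewer. In the injured-father library 1 the reads were nearly equal, at 382 for irf1b and 381 for irf2b. Per kilobase of exon irf2b was the higher there, at 12.5 against 11.6 CPM. The log2 ratio differed by 0.99 between the groups, with an exact two-sided permutation p of 0.029, the smallest that 4 against 4 allow, and an adjusted p of 0.086 over the 3 ratios. It differed by 0.84 to 1.13 when any 1 library was left out. The ratios were chosen with earlier results of these data known, so these p-values are not independent evidence. irf2a, the other copy of irf2, was at 10.4 ± 0.692 CPM with injured fathers and 10.2 ± 1.64 CPM with uninjured fathers, with a log2 fold of 0.02 (SE 0.20). The irf2a to irf2b log2 ratio differed by 0.03 (exact permutation p = 0.91; adjusted p = 0.91).

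irf9, whose product works together with that of stat2, was the most abundant IRF gene per length of exon (ENSDARG00000016457, chromosome 12, 13282797 to 13306883, plus strand, 11 merged exons). It was at 25.7, 25.6, 40.1 and 35.5 CPM in the injured-father libraries 1, 2, 4 and 7, against 23.7, 17.4, 24.9 and 17.0 CPM in the uninjured-father libraries 1, 3, 4 and 5. The groups did not overlap, but the injured-father libraries 1 and 2 lay within 1 CPM of the uninjured-father library 4. edgeR gave a log2 fold of 0.61 (SE 0.22), an adjusted p of 0.59 and, before adjustment, a p of 0.015. Without the injured-father library 4 the log2 fold was 0.48 (unadjusted p 0.057). That library had the highest haemoglobin share, and with the share in the model the log2 fold was 0.44 (unadjusted p 0.14). With the macrophage marker level in the model it was 0.54 (unadjusted p 0.062).

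**Figure D3:**
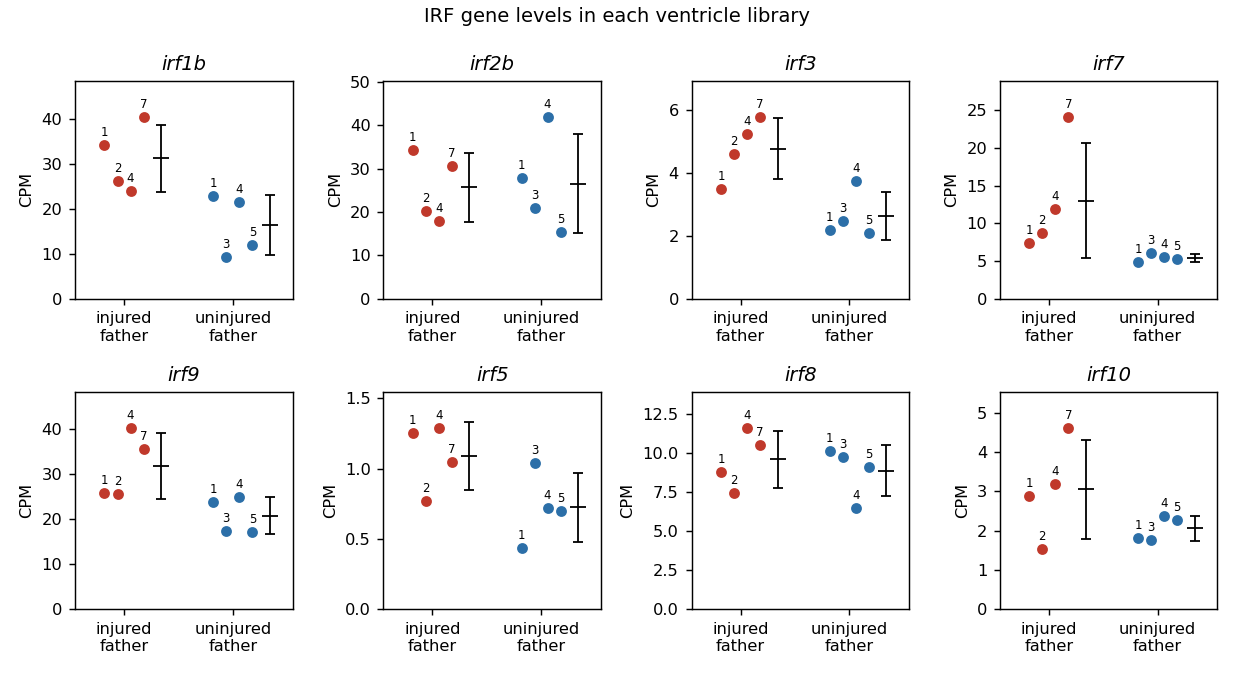
CPM of the 8 tested IRF genes, 1 point per library with its number in the labels, injured fathers in red on the left and uninjured fathers in blue on the right; bars are mean ± SD of 4 libraries. On this TMM scaling the groups are apart in irf1b, irf7 and irf9, and irf7 reaches 24.0 CPM in the injured-father library 7.

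The IRF genes of leukocytes gave smaller or less certain differences. irf8 (listed as IRF8; ENSDARG00000056407, chromosome 18, 30567945 to 30573849) was at 8.79, 7.47, 11.6 and 10.5 CPM in the injured-father libraries 1, 2, 4 and 7, against 10.1, 9.76, 6.49 and 9.14 CPM in the uninjured-father libraries 1, 3, 4 and 5. The groups overlapped, and the log2 fold was 0.12 (SE 0.23; unadjusted p 0.62), or -0.0098 without the uninjured-father library 4. irf5 (listed as IRF5; chromosome 4, 13605600 to 13614936) rested on 14, 7, 17 and 18 reads in the injured-father libraries 1, 2, 4 and 7, and on 6, 13, 10 and 9 reads in the uninjured-father libraries 1, 3, 4 and 5. At this depth its log2 fold of 0.60 had an SE of 0.39 (unadjusted p 0.15), and the groups overlapped. irf4a (listed as IRF4), a family gene of lymphocytes outside the 9, was at 1.87 ± 0.688 CPM with injured fathers and 1.3 ± 0.297 CPM with uninjured fathers (SD, n = 4 each), a log2 fold of 0.53 (SE 0.36). irf4b had 2 reads in the injured-father library 7 and 0 in each of the other 7 libraries. In pooled tissue, more leukocytes and more IRF transcript per cell cannot be told apart.

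irf10 was at 2.87, 1.54, 3.19 and 4.61 CPM in the injured-father libraries 1, 2, 4 and 7, against 1.82, 1.76, 2.38 and 2.26 CPM in the uninjured-father libraries 1, 3, 4 and 5 (ENSDARG00000027658, chromosome 23, 642001 to 653333). Of the injured-father libraries, 3 lay above all uninjured-father ones and library 2 lay below them all. The log2 fold was 0.59 (SE 0.34; unadjusted p 0.11). It was 0.31 without the injured-father library 7 (unadjusted p 0.38), 0.79 without library 2 of that group (unadjusted p 0.027), and 0.24 with the macrophage marker level in the model (unadjusted p 0.53).

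The injured-father library 7 was among the 3 highest libraries for all 8 tested genes and was the highest for 4 of them (irf1b, irf3, irf7 and irf10). The injured-father library 4 was the highest for 3 (irf5, irf8 and irf9), and the uninjured-father library 4 for irf2b. Averaged over the 8 genes, log2 CPM lay above the uninjured-father mean by 0.95 in the injured-father library 7, 0.63 in library 4, 0.50 in library 1 and 0.22 in library 2. The same average for the uninjured-father library 4 was 0.23, level with the injured-father library 2. Without the injured-father libraries 4 and 7 together, a setting chosen after seeing the data, 1 of the 8 genes, irf1b, had an unadjusted p under 0.05, and the median log2 fold was 0.40.

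**Figure D4:**
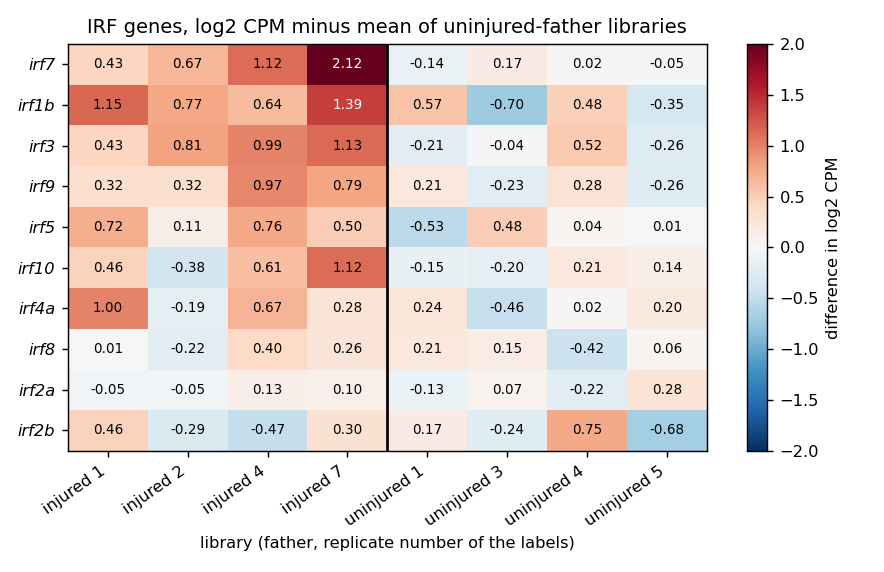
Log2 CPM of the 10 tested IRF family genes (rows) in each library (columns, injured fathers left of the line and uninjured fathers right of it) minus the mean of the uninjured-father libraries. irf7 stands 2.12 above that mean in the injured-father library 7, and irf2a lies between -0.22 and 0.28 from it in every library.

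The genes on which IRF proteins depend, or which they act on, were taken from fixed lists. stat2, whose product joins that of irf9, was at 24.6 ± 2.94 CPM with injured fathers and 13.5 ± 4.37 CPM with uninjured fathers (SD, n = 4 each), and the groups did not overlap. edgeR gave it a log2 fold of 0.86 (SE 0.24; unadjusted p 0.0037), beside 0.61 for irf9.

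Other lists hold genes that act above the IRF proteins in the pathway. Of 13 tested adaptors and kinases, 9 had a log2 fold above 0 and 0 had an unadjusted p under 0.05, with a median of 0.15. Over all tested genes, 48.6% were above 0, and 3.67% were higher and 3.47% lower at that p. In lists this short, a count of 0 at that p says little, here and for the receptors below. The kinase genes TBK1 and IKBKE, whose products phosphorylate IRF3 and IRF7, had log2 folds of 0.13 and 0.06, and the scaffold genes tank, traf3 and azi2, the members with the smallest p, 0.64, 0.40 and 0.46. Of 3 tested sensors and Toll-like receptors, the helicase gene DHX58 was at 16.9 ± 7.35 CPM with injured fathers and 6.31 ± 2.14 CPM with uninjured fathers (SD, n = 4; log2 fold 1.42), while IFIH1 had a log2 fold of 0.08 and tlr22 of 0.54. Of 8 tested interferon receptor and Janus kinase genes, 0 had an unadjusted p under 0.05 and the median log2 fold was 0.04; the smallest p values were those of ifngr1l (-0.29), JAK1 (-0.25) and TYK2 (0.18). Of 6 interferon genes, ifnphi1 alone had enough reads to be tested, at 0.932 ± 0.510 CPM with injured fathers and 0.973 ± 0.393 CPM with uninjured fathers (SD, n = 4; log2 fold -0.02). TBK1 and IKBKE were named after their values were seen.

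Below the IRF proteins, 24 rows matched the list of target genes. Of these, 15 had enough reads to be tested, and the others are not counted here. The log2 fold was above 0 in 15 of the 15, in 10 of them at an unadjusted p under 0.05, with a median of 1.02. Over all tested genes, 48.6% were above 0 and 3.67% were higher at that p. The antiviral genes RSAD2, isg15 and CMPK2 had the smallest p, with log2 folds of 2.74, 2.16 and 1.65. With any 1 library left out, RSAD2 and isg15 were lowest without the injured-father library 7, at 1.96 and 1.67. CMPK2 was lowest without the uninjured-father library 3, at 1.42. This list overlaps interferon response genes known from earlier results of these data to be higher, so its direction is not independent evidence. A list of regulators of interferon signalling, mostly inhibitors, had 15 tested genes. Of these, 4 were higher at an unadjusted p under 0.05 and 0 lower, beside 3.67% and 3.47% of all tested genes. SOCS1 is also counted among the target genes, which leaves 3 others. Among those 3 is trim25, which is not an established inhibitor. SOCS1 was at 5.92 ± 3.09 CPM with injured fathers and 1.58 ± 0.479 CPM with uninjured fathers (SD, n = 4), the deubiquitinase gene usp18 at 4.67 ± 1.56 and 1.79 ± 0.516 CPM, and SOCS3 on chromosome 12 and trim25 had log2 folds of 1.25 and 0.53 (trim25 was named after its value was seen). SOCS3 on chromosome 12 was at 0.60 without the injured-father library 4 (unadjusted p 0.13), and trim25 at 0.40 without library 7 of that group (unadjusted p 0.14). Another SOCS3 row, on chromosome 3, had a log2 fold of 0.58 (edgeR unadjusted p 0.60). Without the injured-father library 4 that row was at -0.66 (unadjusted p 0.52). It was named after its value was seen. SOCS1 and usp18 encode feedback inhibitors that are themselves induced by interferon.

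Of the 9 tested factors that share the myeloid and lymphoid work of irf8, 6 had a log2 fold above 0. Their median was 0.05, and 48.6% of all tested genes were above 0. At an unadjusted p under 0.05, 1 of the 9 was higher and 1 lower, beside 3.67% and 3.47% of all tested genes. The repressor gene BCL6 was lower (0.959 ± 0.404 CPM with injured fathers and 2.33 ± 1.07 CPM with uninjured fathers; SD, n = 4) and CEBPB higher (22.2 ± 10.9 and 12.6 ± 4.27 CPM, injured fathers first), each at an unadjusted p under 0.05. Without the uninjured-father library 3 the log2 fold of BCL6 was -0.93, against -1.27 with it (unadjusted p 0.051 and 0.010), and without the injured-father library 7 that of CEBPB was 0.54, against 0.82 with it (unadjusted p 0.16 and 0.043). RUNX1 had a log2 fold of -1.73 (SE 0.80), and of -0.65 without the uninjured-father library 4, where it was at 4.47 CPM. SPI1, the macrophage factor that binds DNA with IRF8, had a log2 fold of 0.05, beside 0.12 for irf8; it was named after its value was seen. The IRF2-binding co-repressor genes had a median log2 fold of -0.42 over 4 rows, 0 of them at an unadjusted p under 0.05; IRF2BP2 on chromosome 11 was at 38.7 ± 10.9 CPM with injured fathers and 75.3 ± 59.2 CPM with uninjured fathers, and IRF2BP1 and IRF2BPL had log2 folds of -0.59 and 0.39. The uninjured-father library 4 was far above the others of its group, with IRF2BP2 at 161 CPM. Without it the log2 fold was -0.27 for IRF2BP2, against -0.96 with it, and -0.18 for IRF2BP1. IRF2BPL was at 0.032 without the injured-father library 7.

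**Figure D5:**
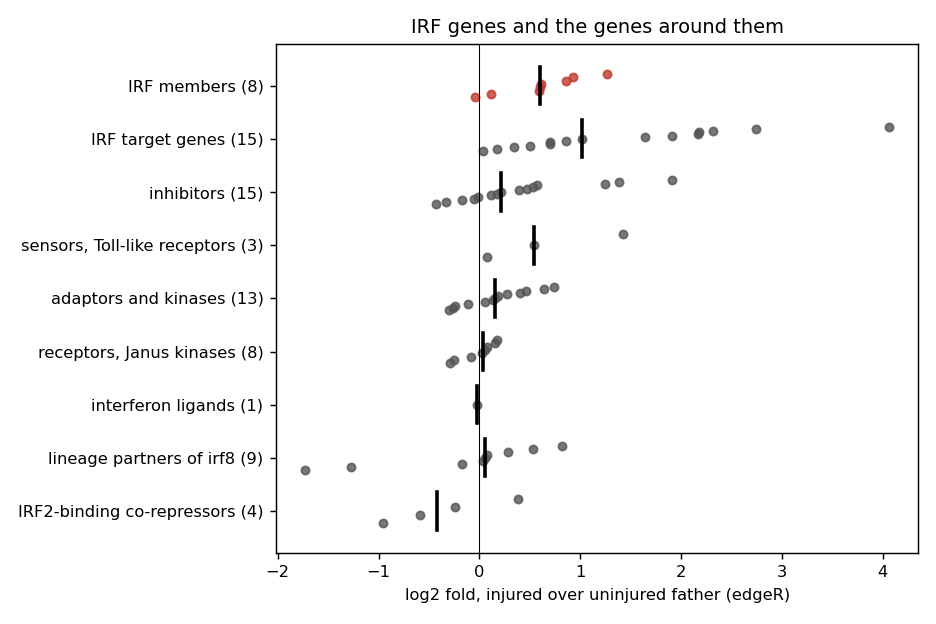
Log2 fold (injured over uninjured father, edgeR) of each tested gene in the IRF set and in 8 lists around it, 1 point per gene, with the number tested in brackets and a black bar at the median. The medians are 0.60 for the IRF genes, 1.02 for the target genes and 0.04 for receptors and Janus kinases.

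The 9 genes lie on 8 chromosomes, with irf3 and irf9 both on chromosome 12. Of their 18 nearest neighbours that do not overlap them, 8 were tested, and their median log2 fold was 0.004. At an unadjusted p under 0.05, 0 of the 8 were higher or lower, beside 3.67% of all tested genes higher and 3.47% lower. With 8 genes, a count of 0 is near those shares. PHRF1, on the opposite strand and ending 421 bases from irf7, had a log2 fold of -0.20 (SE 0.18), beside 1.27 for irf7. PRR12, 3093 bases from irf3, had a log2 fold of -0.44 (SE 0.27), and emc9, 5056 bases from irf9, one of 0.14 (SE 0.24). The counting did not use strand, so reads from the opposite strand within an exon of an IRF gene would have been counted with it. No annotated gene shares exon bases with any of the 9.

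The genes whose log2 CPM over the 8 libraries was most like that of an IRF gene were listed among 11428 named genes with a mean of at least 1 CPM; the likeness is Pearson's coefficient and describes these libraries, which differ in depth and in the father's group. For irf7 they were lgals9l3 (0.95), zc3h7ba (0.95) and marco (0.95), the last a macrophage scavenger receptor gene that was also on the marker list. irf9 was most like gig2p (0.96), PRRG4 (0.94) and THYN1 (0.94), and irf3 most like PRRG4 (0.96), mcl1a (0.95) and gig2o (0.94). irf1b was most like CMPK2 (0.94), creb1a (0.93) and ZNFX1 (0.92), and irf10 most like CBR1 (0.95), tapbp.1 (0.94) and tapbpl (0.93). The 3 genes nearest irf2b were GATAD2A (0.99), DDX47 (0.99) and SS18 (0.98), those nearest irf8 were EIF2S1 (0.95), CHST2 (0.95) and ILKAP (0.94), and those nearest irf5 were TMEM229B (0.97), ponzr1 (0.95) and MXRA8 (0.94). All are the highest of 11428 genes over 8 libraries, so a high value alone says little. With group means taken out, the 3 coefficients were 0.91, 0.94 and 0.87 for irf7, and 0.90, 0.85 and 0.81 for irf1b. For irf2b they did not fall (0.99, 0.99 and 0.997).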

How the data were processed

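Values were raw counts, 1 per gene and library, as the authors deposited them. Per the file headers, the authors counted with featureCounts 2.0.3 on the Ensembl GRCz11 annotation, release 111, with strand option 0; per the submitters' processing notes, reads were aligned with STAR 2.7.10a. Per the labels' protocols, libraries came from 1 ng of RNA by amplification and were read as 60 bases. Reads carried no molecular identifiers, so intervals and floors cover counting error only. Gene lengths are the deposited exon lengths. A name table gave symbols to 89.8% of the 32520 genes.

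Injured and uninjured fathers were compared with edgeR 4.0.16 (R 4.3.3; quasi-likelihood, TMM factors, filterByExpr with minimum count 10, robust, Benjamini-Hochberg over 13604 genes). CPM use TMM-scaled totals of the tested genes; log2 CPM use a prior count of 2. SEs were derived from the log2 fold and the F statistic. The scripts were tested on simulated data. Ratios of reads were compared by exact permutation over 70 assignments. The members, lists and ratios were chosen with earlier results of these data known. Named genes are all 9 members, up to 3 tested genes of smallest p per pathway list, and the 3 genes most like each member. The macrophage markers csf1rb, cd74a and cd74b, the family gene irf4b and the neighbours PHRF1, PRR12 and emc9 were named outside these rules. Others are said to be named after their values were seen. Alternatives were other scalings (RLE, library size, upper quartile), filters, DESeq2 1.42.0, limma 3.58.1 voom with and without quality weights, each library left out, the replicate number as a block, and the haemoglobin share or macrophage marker level as a covariate. No sequences were used here. Some genes of the lists are not reported here.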

Additional observations from a re-analysis of the deposited data

Results flagged for a closer look

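The irf1b to irf2b ratio of reads in the injured-father library 1 was 1.003, far below the 1.3 to 1.34 of the other 3 libraries of its group. The haemoglobin share of counts was 0.360% in the injured-father library 4, against 0.155% to 0.173% in the others of its group, and 0.171% in the uninjured-father library 3, against 0.0900% to 0.101% in the others. Fibroblast and epicardial markers summed to 386 CPM in the injured-father library 7, against 602 to 642 CPM in the others of that group; irf7 was highest in this library. These 4 values stood apart by Dixon's criterion for groups of 4, out of 46 groups examined, where chance marks about 1 in 20. No IRF gene's own level was marked.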

How the results depend on the processing

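All 8 leave-one-out fits and the other alternatives called 0 of the IRF genes at an adjusted p of 0.05. Over all genes, DESeq2 called 63, the edgeR fit with the replicate number as a block called 20, and the main edgeR fit and every other alternative called 0. The block fits nearly as many terms as there are libraries, so neither its 20 calls nor its unadjusted p-values decide much. With that replicate block, which rests on numbers 1 and 4 because the groups share no others, 0 IRF genes had an unadjusted p under 0.05 and the median log2 fold was 0.47, with irf1b at 0.37 (unadjusted p 0.42), irf7 at 0.86 (unadjusted p 0.12) and irf5 at 1.14 (unadjusted p 0.16); deviations from the group means of same-numbered libraries correlated at 0.12 for number 1 and -0.28 for number 4, so the numbers were not taken as pairs. The count of IRF genes higher at an unadjusted p under 0.05 was 3 to 5 without any 1 library, 3 with the haemoglobin share or the macrophage level in the model (irf9 was the gene lost in both), 1 without the injured-father libraries 4 and 7, and 4 under the other alternatives. The median log2 fold was 0.54 to 0.75 without any 1 library and 0.47 to 0.67 under the alternatives that kept all 8 libraries.

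Of 159 single-gene values under an alternative, 144 kept the direction of the main fit, and the other 15 were of irf2b (10) and irf8 (5). irf2b was at 0.049 with library sizes alone, 0.020 with upper-quartile factors, 0.0021 with limma voom, 0.043 with its quality weights, 0.29 and 0.14 with the haemoglobin share and the macrophage level, and 0.047 without the injured-father libraries 4 and 7, and ran from -0.23 to 0.26 without any 1 library. irf8 was at -0.076 with quality weights, -0.068 and -0.056 with the same covariates and -0.12 without those 2 libraries, and ran from -0.0098 to 0.21 without any 1 library. The difference in the log2 ratio of irf7 to irf3 ran from -0.021 to 0.36 and that of irf2a to irf2b from -0.30 to 0.36 without any 1 library; the cause was not tested. With 3 against 4 libraries the smallest exact permutation p is 0.057. Depth limited irf5 (at most 18 reads) and irf1a (at most 4).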
